A study of Mus musculus with 12 samples.

Results

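The genes described here were 42 genes of mitosis, the spindle and cytokinesis, taken as the rows of the deposited table whose gene name equalled an entry of a fixed list, and all 42 were found among the 29862 genes of the table. Their RNA was measured by poly(A) RNA sequencing in 12 libraries of immortalized mandibular fibrochondrocytes, cells of the fibrous cartilage that covers the condyle of the jaw joint. The control cells carried the wild type genotype. The NG2|EDmut cells came from CRISPR/Cas9 editing that truncated the extracellular domain of NG2/CSPG4, a transmembrane proteoglycan, removing its type VI collagen binding region. Each line was grown in AMEM with heat-inactivated FBS (serum) or in Optimem without serum (serum starvation), which gave 4 groups with 3 libraries each. All groups shared the origin, condylar cartilage of C57BL/6J mouse pups aged 10 to 14 days, and the immortalization with hTERT, the catalytic subunit of human telomerase. Each line was 1 clone, and both clones had been picked for their growth, so that clone and genotype cannot be told apart. The labels do not tie the libraries of a group to separate animals, and libraries of 1 clone hold no spread between animals or clones. The p-values below measure the spread between these libraries. No source used here states the length of the starvation.

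Mitosis divides the copied chromosomes between 2 daughter cells. Cyclin A and B partners switch on the kinase CDK1, condensin and topoisomerase II compact and untangle the chromosomes, kinetochores attach them to a spindle built by kinesin motors, and the spindle checkpoint holds anaphase until every kinetochore is attached. The anaphase-promoting complex then marks cyclin B and the inhibitor of separase for destruction, and a contractile ring at the spindle midzone splits the cell. Transcripts of these genes rise in G2 and fall in quiescent cells, and serum removal is a classical way to make fibroblast-like cells quiescent. In bulk RNA, fewer dividing cells and less of these transcripts in each cell cannot be told apart.

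Total estimated counts were 60277881 to 77172479 per library, and all 42 genes were among the 18703 genes with enough counts to be tested. Values below are CPM, estimated counts scaled to a common library total and by TMM, a normalization that evens out the bulk of the genes between libraries, as mean ± SD with n = 3 unless each library is listed. Log2 fold changes are given ± a standard error instead. The fibrochondrocyte label was checked against its markers. Col1a1 was at 22245 ± 2945 CPM in control serum libraries. Runx2 averaged 225 ± 47.6 to 415 ± 20.6 and Sox9 20.1 ± 1.37 to 47.8 ± 1.18 CPM over the groups. The cartilage gene Col2a1 averaged 39.2 ± 7.55 CPM in control serum and 11.9 ± 1.19 CPM in starved control libraries. In NG2|EDmut libraries it averaged 15.3 ± 6.61 CPM with serum and 13.2 ± 3.11 CPM under starvation. The cartilage genes Acan and Prg4 were at or below 1.34 and 2.17 CPM in every library. The 15 markers of other cell types, 13 of them listed in the table, summed to 13.6 to 32.2 CPM per library, with the leukocyte gene Ptprc at 0 in 8 of 12 libraries and the adipocyte gene Adipoq in 11. In serum, Cspg4 averaged 132 ± 46.8 CPM in the control and 207 ± 51.3 in the mutated line, and a count over the whole gene does not show a truncation.

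One library stood apart from its group before any test. The 42 genes summed to 6592 and 6661 CPM in control serum replicates 2 and 3 but to 1005 CPM in replicate 1, a ratio of 6.59. The starved control libraries summed to 705, 552 and 527 CPM, the NG2|EDmut serum libraries to 1977, 1779 and 2239 CPM and the starved NG2|EDmut libraries to 1718, 1802 and 1668 CPM. Control serum replicate 1 thus lay 1.69 times above the starved control mean and below every NG2|EDmut library. Gene by gene, replicates 2 and 3 were above the other 10 libraries in all 42 genes, and replicate 1 was above all starved control libraries in 41 of 42, the exception being Ccnf, and below all NG2|EDmut serum libraries in 41 of 42, the exception being Cenpf. On a scale from the mean of serum replicates 2 and 3 (0) to the starved control mean (1) its median position over the 42 genes was 0.769 (0.662 to 0.932). Its total of 64888317 estimated counts and its markers of other cell types (16.3 CPM in all) were within the range of the other 11 libraries, while its share of counts from ribosomal RNA genes (0.490%) was the lowest (0.606% to 4.82% in the others). The part of these in its position was not tested, and the number of the 42 genes called in each comparison that uses it is given with and without it. The same counts and position over all tested genes are not given, so they do not show whether this placing is particular to the 42 genes. Control serum replicate 1 was set apart by its values in these same genes, so results without it are not independent of that choice.

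**Figure D1:**
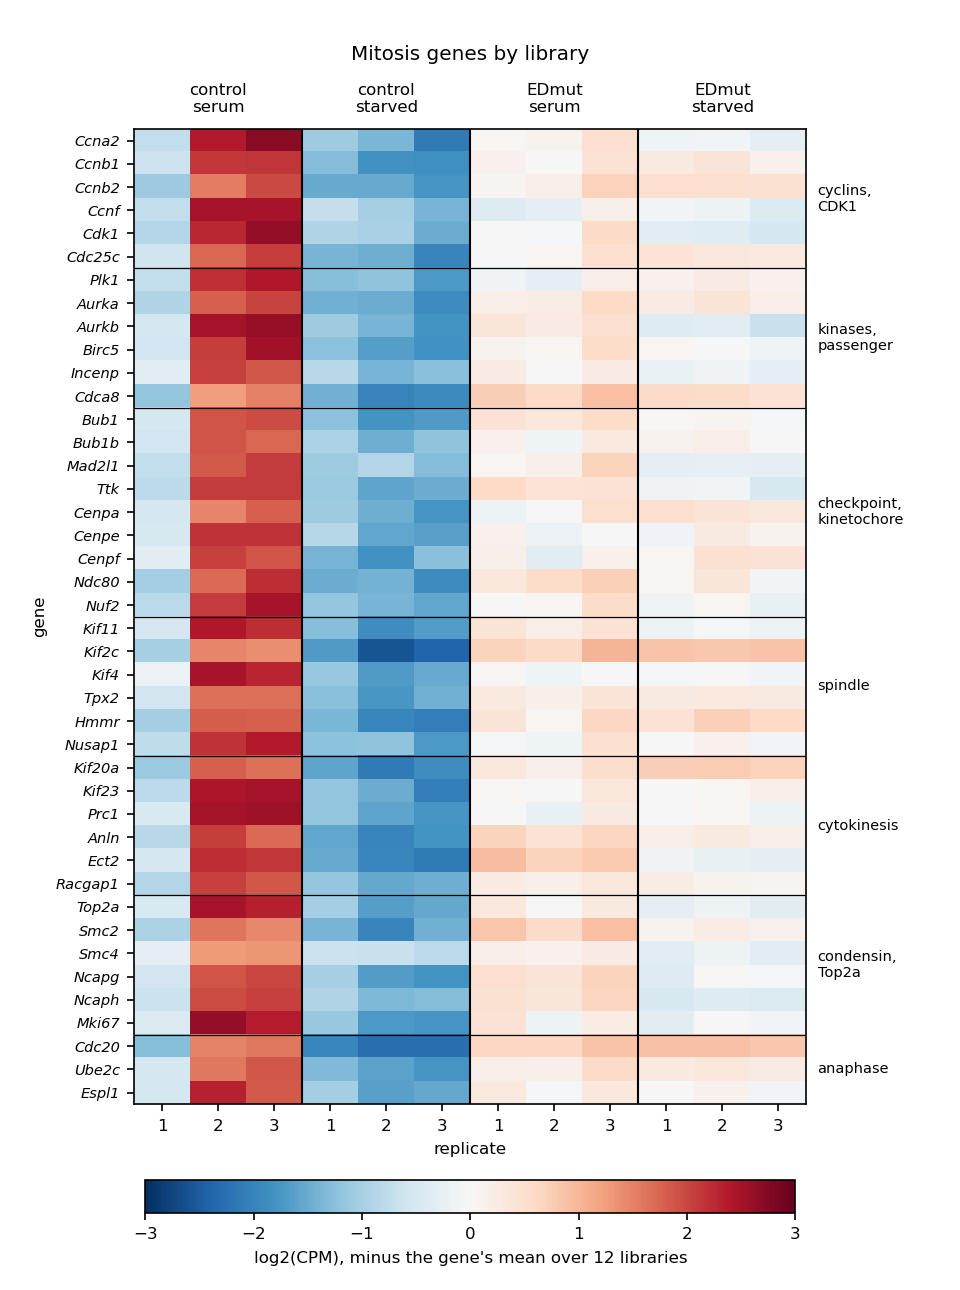
Level of each of the 42 genes (rows, ordered by role) in each of the 12 libraries (columns, replicates 1 to 3 of the 4 groups), as log2 CPM minus the mean of the gene over the 12 libraries, red above and blue below that mean. Control serum replicates 2 and 3 are red in all 42 rows, the starved control columns are blue, control serum replicate 1 is pale blue, and the 6 NG2|EDmut columns lie between.

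Most of the matched promoters of these genes carried short motifs known from genes of mitosis, so the letters are shown for 4 of them. Many genes of mitosis carry in their promoters a CHR (cell cycle genes homology region), the landing site of MuvB complexes, which repress in quiescence as the DREAM complex and activate in G2 with B-MYB (the product of Mybl2) and FOXM1, often beside CCAAT boxes, which bind NF-Y. RefSeq promoters (GRCm38.p6, 250 bases before to 50 after the start) were matched for 35 of the 42 genes. Cdc20 (chr4:118437294-118437593, minus strand) is shown as the gene with the joint largest difference between the starved lines, Ccnb2 (chr9:70421505-70421804, minus strand) as a mitotic cyclin, Plk1 (chr7:122159185-122159484, plus strand) as a mitotic kinase, and Ncaph (chr2:127133905-127134204, minus strand) as a gene with no match. Capitals mark TTTGAA or TTCGAA, the letters searched for the CHR, and CCAAT, on either strand and with overlaps allowed.
Cdc20: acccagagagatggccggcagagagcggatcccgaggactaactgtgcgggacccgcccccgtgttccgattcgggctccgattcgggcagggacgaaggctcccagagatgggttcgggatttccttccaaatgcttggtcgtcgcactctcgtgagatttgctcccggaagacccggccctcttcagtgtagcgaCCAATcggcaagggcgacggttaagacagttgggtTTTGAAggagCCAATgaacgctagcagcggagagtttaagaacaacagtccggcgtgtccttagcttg
Ccnb2: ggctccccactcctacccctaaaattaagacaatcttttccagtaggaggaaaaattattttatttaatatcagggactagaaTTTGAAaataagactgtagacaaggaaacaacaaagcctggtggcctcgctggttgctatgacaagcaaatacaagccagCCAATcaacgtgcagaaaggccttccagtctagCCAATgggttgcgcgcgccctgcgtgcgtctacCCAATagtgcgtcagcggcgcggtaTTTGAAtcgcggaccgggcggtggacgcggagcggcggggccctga
Plk1: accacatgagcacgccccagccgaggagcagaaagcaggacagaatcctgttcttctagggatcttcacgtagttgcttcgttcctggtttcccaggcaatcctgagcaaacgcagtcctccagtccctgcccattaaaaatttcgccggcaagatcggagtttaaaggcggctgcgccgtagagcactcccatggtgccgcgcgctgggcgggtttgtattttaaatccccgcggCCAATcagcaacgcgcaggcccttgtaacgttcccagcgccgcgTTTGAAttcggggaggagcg
Ncaph: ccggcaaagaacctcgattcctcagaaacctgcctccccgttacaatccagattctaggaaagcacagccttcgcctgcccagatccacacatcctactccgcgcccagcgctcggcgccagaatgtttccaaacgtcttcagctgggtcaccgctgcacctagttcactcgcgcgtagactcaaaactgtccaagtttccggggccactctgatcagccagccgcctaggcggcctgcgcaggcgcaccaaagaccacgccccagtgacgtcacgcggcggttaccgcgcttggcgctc

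The CHR letters began 18 bases before the start in Cdc20, 167 before and 4 after it in Ccnb2, and 30 after it in Plk1. They were in 30 of the 37 promoters of the matched genes (81.1%), against 19.2% of all 32851 promoters of that length in the table, 56% of 75 promoters of other mitosis genes and 18.8% of 32 promoters of S phase genes. Within 60 bases before to 20 after the start the shares were 56.8%, 4.77%, 36% and 6.25%, in the same order. CCAAT was in 78.4% of these promoters, 37.4% of all, 61.3% of those of other mitosis genes and 62.5% of those of S phase genes. The motifs and the window were chosen with the expression values known, and a match describes letters, not binding. The motifs are known from genes of this kind, so their shares here are not independent of the choice of genes.

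The cyclins and the activation of CDK1 were represented by 6 genes. Ccna2 (cyclin A2, chr3:36564865-36572150), which drives S phase and the entry into mitosis, was at 32, 280.0 and 349 CPM in control serum replicates 1, 2 and 3, at 25.7, 20.7 and 12.4 CPM in the starved control, at 56.1, 57.8 and 76.6 CPM in NG2|EDmut serum and at 49.1, 50.8 and 44.4 CPM in starved NG2|EDmut libraries. Ccnb2 (cyclin B2, chr9:70407692-70421547), a mitotic partner of CDK1, was at 11.5, 71.1 and 96.1, at 8.55, 8.53 and 7.20, at 25.9, 28.0 and 39.6 and at 34.5, 34.4 and 33.5 CPM in the same order. The starved NG2|EDmut libraries of Ccnb2 lay within the range of the NG2|EDmut serum libraries, and all 6 lay above the starved control. Ccnf (cyclin F, chr17:24222198-24251484), the substrate receptor of a ubiquitin ligase, had the values 10.2, 96.1 and 94.4, then 10.4, 8.5 and 6.44, then 13, 13.9 and 19.1, then 16.0, 15.2 and 12.7 CPM, and control serum replicate 1 fell inside the range of the starved control. Ccnb1 (cyclin B1) had group means of 129 ± 88.4, 13.2 ± 2.91, 47.1 ± 7.65 and 49.5 ± 4.46, Cdk1, the kinase itself, of 258 ± 197, 31.3 ± 6.41, 77.8 ± 19.4 and 50.7 ± 3.57, and Cdc25c, the phosphatase that activates it, of 20.9 ± 14.2, 2.55 ± 0.526, 8.85 ± 1.77 and 9.83 ± 0.391 CPM, again in the order control serum, control starved, NG2|EDmut serum, NG2|EDmut starved, which holds for all means and lists of values below.

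Among the mitotic kinases and the chromosomal passenger complex, which corrects wrong attachments at the centromere, Plk1 (polo-like kinase 1, chr7:122159439-122169873) was at 15.0, 114 and 131, at 10.2, 10.8 and 7.56, at 23.1, 20.7 and 28.6 and at 27.3, 29.5 and 27.3 CPM. Incenp (chr19:9872296-9899551), the scaffold of the passenger complex, was at 37.0, 189.6 and 166, at 25.7, 17.5 and 19.2, at 54.3, 45.5 and 53.9 and at 40.1, 42.7 and 37.1 CPM. In both genes the starved control libraries lay below all others. Aurkb (Aurora B), the kinase of the passenger complex, had means of 90.6 ± 65.6, 8.36 ± 2.05, 28.2 ± 2.29 and 15.9 ± 1.90 CPM, Cdca8 (borealin) had 59.7 ± 40.5, 9.25 ± 1.98, 52.8 ± 5.48 and 45.2 ± 2.23 CPM and Birc5 (survivin) 85.3 ± 62.7, 8.29 ± 1.77, 28.8 ± 5.85 and 23.9 ± 1.71 CPM. In both Aurkb and Cdca8 the starved NG2|EDmut libraries were all below the serum libraries of that line, and in Birc5 they overlapped. Aurka (Aurora A), which works at the spindle poles, had means of 58.0 ± 40.8, 7.16 ± 1.17, 27.4 ± 4.31 and 26.1 ± 1.88 CPM.

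Of the 9 genes of the spindle checkpoint, centromere and kinetochore, Bub1b (BubR1, chr2:118598211-118641591) was at 18.4, 102 and 91.2, at 14.2, 9.91 and 11.9, at 30.2, 25.2 and 34 and at 29.6, 31.7 and 27.7 CPM. Mad2l1 (MAD2, chr6:66535390-66547220), which with BubR1 holds back CDC20, was at 28.2, 169 and 201, at 22.4, 25.7 and 19.0, at 49.0, 52.2 and 74.7 and at 38.4, 39.3 and 38.3 CPM. The NG2|EDmut serum and starved libraries did not overlap in Mad2l1 and did in Bub1b. Cenpf (chr1:189640606-189688086), a protein of the outer kinetochore, was at 19.2, 99.1 and 88.5, at 9.18, 6.80 and 10.1, at 26.5, 18.9 and 26.2 and at 24.8, 32.9 and 32.3 CPM, and the lowest NG2|EDmut serum library lay just below control serum replicate 1. The other 6 were the checkpoint kinases Bub1 and Ttk, the centromeric histone Cenpa, the kinesin Cenpe and the microtubule-binding NDC80 subunits Ndc80 and Nuf2. In starved control cells they averaged from 3.57 (Ttk) to 9.56 CPM (Cenpa) and in starved NG2|EDmut cells from 8.01 (Ttk) to 33.9 CPM (Cenpa).

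The spindle motors and microtubule-associated proteins held a gene with one of the largest differences between the starved lines. Kif2c (MCAK, chr4:117159639-117182639), a kinesin that depolymerizes microtubule ends, was at 12.9, 70.7 and 67.4, at 7.90, 4.26 and 4.92, at 40.9, 38.0 and 51.7 and at 46.0, 44.9 and 46.5 CPM. Tpx2 (chr2:152847964-152895321), which activates Aurora A and nucleates spindle microtubules, was at 51.5, 241 and 239, at 32.2, 22.8 and 28.2, at 93.4, 84.9 and 100.4 and at 91.4, 94.1 and 92.5 CPM. Both stayed at their serum level in starved NG2|EDmut libraries, within the range of the 3 serum libraries in every case. Kif4 (chrX:100625737-100727214), a chromosome-bound kinesin, was at 14.8, 93.7 and 81.3, at 7.62, 5.21 and 5.87, at 17.1, 15.3 and 16.7 and at 16.5, 16.7 and 15.9 CPM, the evenest of the 42 genes across the 6 NG2|EDmut libraries, with a ratio of highest to lowest of 1.12. Kif11 (Eg5), which pushes the spindle poles apart, had means of 144 ± 101, 13.5 ± 2.94, 51.6 ± 4.30 and 37.6 ± 1.54 CPM, Hmmr (RHAMM) of 80.8 ± 56.1, 9.46 ± 2.61, 41.8 ± 8.32 and 48.6 ± 4.73 CPM and Nusap1 of 75.5 ± 54.7, 8.5 ± 1.62, 24.1 ± 5.89 and 22.3 ± 1.5 CPM.

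Of the cytokinesis genes, Kif20a (MKLP2), a midzone kinesin that carries the passenger complex, was at 28.1, 211 and 191, at 20.4, 14.0 and 16.8, at 76.3, 67.1 and 88.1 and at 102, 104 and 98.7 CPM, and here the starved NG2|EDmut libraries were all above the NG2|EDmut serum libraries. Racgap1 (chr15:99620496-99651656), a subunit of centralspindlin, was at 45.3, 348 and 306, at 37.3, 28.6 and 30.2, at 99.5, 92.6 and 105 and at 97.8, 89.8 and 89 CPM. Prc1 (chr7:80294450-80316259), which bundles midzone microtubules, was at 34.6, 269 and 277, at 20.9, 15.9 and 14.0, at 47.4, 40.7 and 57.1 and at 47.8, 49.7 and 42.4 CPM. Control serum replicates 2 and 3 stood highest in each. Ect2 (chr3:27097222-27153878), the exchange factor that activates RhoA for the contractile ring, was at 21.6, 142 and 133, at 10.8, 7.93 and 7.03, at 58.1, 48.8 and 53.2 and at 28.7, 26.5 and 25.1 CPM. Unlike Kif20a, every starved NG2|EDmut library of Ect2 was below every NG2|EDmut serum library. Kif23, the kinesin of centralspindlin, had means of 85.3 ± 62.9, 7.66 ± 2.30, 24.2 ± 3.27 and 23.3 ± 1.42 CPM, and Anln (anillin), the scaffold of the ring, of 198 ± 139.6, 21.9 ± 3.28, 112 ± 9.95 and 85.9 ± 2.96 CPM.

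Among the condensin, topoisomerase and chromosome surface genes, Top2a (chr11:98992943-99024189), topoisomerase II alpha, was at 93.5, 715 and 652, at 63.9, 41.0 and 44.8, at 162, 128 and 157 and at 107, 116 and 101 CPM, the highest CPM of all 42 genes in control serum replicates 2 and 3. Smc4 (chr3:69004738-69034623), an ATPase subunit of condensin, was at 74.9, 224 and 230.0, at 58.8, 58.4 and 52.7, at 106, 101 and 109 and at 73.7, 82.2 and 74.4 CPM. Smc4 had the narrowest range of the 42 genes over the 12 libraries (a ratio of highest to lowest of 4.37, against 10.3 for the next, Bub1b), with a starved control mean of 56.6 ± 3.43 CPM that was far above that of its partner Smc2 (16.8 ± 3.49 CPM). The other condensin subunits Ncapg and Ncaph had means of 44.5 ± 29.4, 5.84 ± 1.87, 22.9 ± 2.42 and 14.6 ± 2.24 and of 57.4 ± 38.8, 8.80 ± 1.51, 27.9 ± 2.84 and 14.7 ± 0.467 CPM. Mki67 (Ki-67), which coats mitotic chromosomes and is used as a marker of dividing cells, had means of 225 ± 162, 19.5 ± 5.14, 63.2 ± 12.3 and 50.4 ± 5.53 CPM.

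Of the anaphase genes, Cdc20 (chr4:118432901-118437352), the activator of the anaphase-promoting complex, was at 25.2, 170.2 and 182, at 15.5, 12.7 and 12.7, at 94.0, 93.3 and 109 and at 112, 111 and 107 CPM. Ube2c (chr2:164769898-164778822), the ubiquitin-conjugating enzyme of that complex, was at 21.2, 91.1 and 112, at 12.2, 10.1 and 8.97, at 34.9, 34.1 and 45.6 and at 37.2, 38.6 and 36.2 CPM. Espl1 (separase), the protease that opens cohesin, had means of 54.1 ± 38.2, 6.83 ± 1.67, 20.1 ± 2.65 and 17.8 ± 1.32 CPM. In all 3 genes the starved control libraries lay below all NG2|EDmut libraries. Compared per length, on the deposited FPKM scale (fragments scaled by gene length and library size), Cdc20 had the highest level of the 42 genes, with a mean over the 12 libraries of 43.5, against 20.5 for Top2a, 20.2 for Ccnb2 and 1.98 for Cenpf, the lowest.

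**Figure D2:**
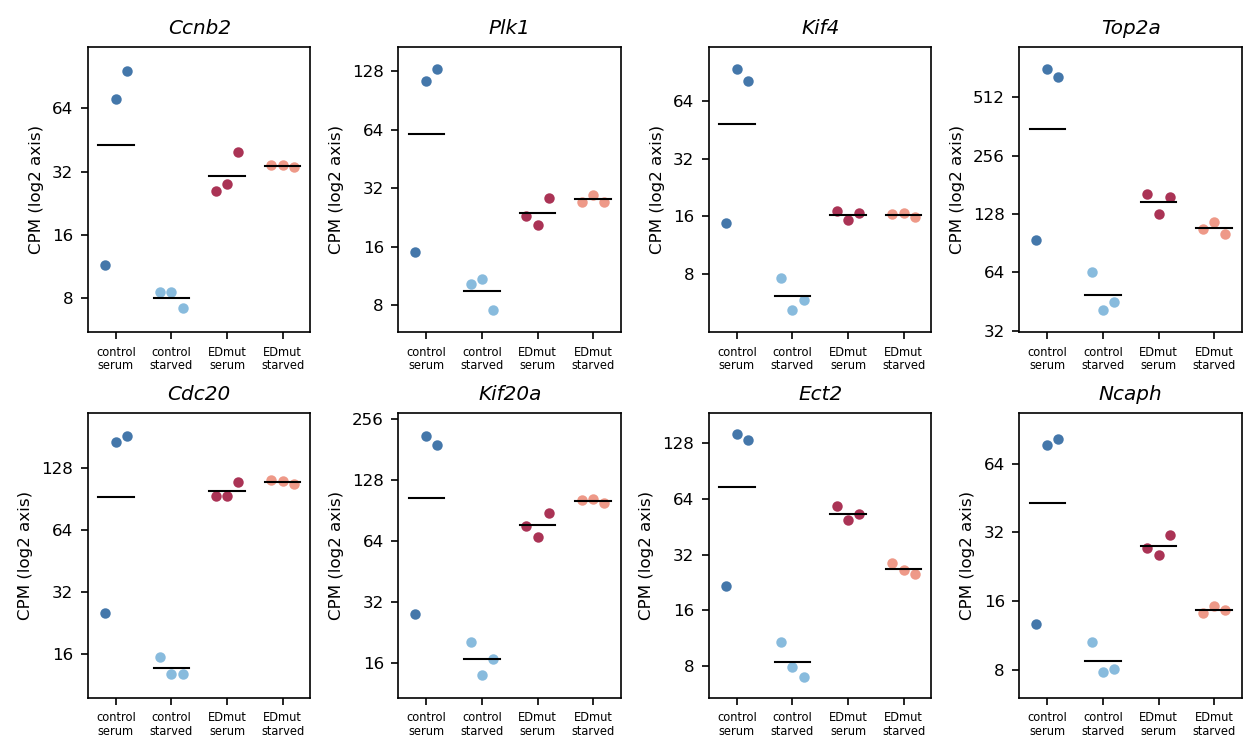
CPM of 8 of the genes in each library, on a log2 axis, with points from left to right for replicates 1, 2 and 3 and a line at the geometric mean of the group (EDmut stands for NG2|EDmut). In every panel the starved control is lowest and control serum replicate 1 lies far below replicates 2 and 3; Cdc20 and Kif20a are no lower in starved than in serum NG2|EDmut libraries on average, Ect2 and Ncaph are lower.

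The difference between starved and serum libraries of the control line was tested first. All 42 genes fell in the starved control cells (edgeR quasi-likelihood test over 12 libraries, Benjamini-Hochberg adjusted p 0.00120 to 0.00557), in a comparison in which 10.8% of all tested genes were called lower. The median log2 fold change was -3.04 (0.04 over all tested genes), from -1.64 for Smc4 to -3.53 for Mki67. By role, the medians ran from -2.81 for the condensin, topoisomerase and chromosome surface genes to -3.33 for cytokinesis. The smallest p-values belonged to Ect2 (-3.52 ± 0.52, adjusted p = 0.00120), Kif4 (-3.34 ± 0.50, adjusted p = 0.00123) and Cenpf (-2.99 ± 0.47, adjusted p = 0.00158). Every control serum library was above every starved control library in 41 of 42 genes (groups of 28% of all tested genes did not overlap), the exception being Ccnf.

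Without control serum replicate 1 the fall was larger, with a median of -3.53, and all 42 genes were again called (15.8% of 19265 genes lower). Fitted on the 6 control libraries alone, 35 were called (2.3% lower), and the 7 others had adjusted p of up to 0.0589. Leaving out any one of the 12 libraries kept all 42 called.

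The lines in serum were compared next. All 42 fitted differences were below 0, and 20 of 42 genes were lower in NG2|EDmut cells at an adjusted p under 0.05, where 16.2% of all tested genes were called lower, with none higher. The median log2 fold change was -1.24 (-0.03 over all tested genes). Kif4 (-1.95 ± 0.47, adjusted p = 0.00811), Prc1 (-2.00 ± 0.53, adjusted p = 0.0140) and Ccnf (-2.12 ± 0.58, adjusted p = 0.0155) had the smallest p-values by edgeR. The cyclin and CDK1 genes and the kinases had 4 of 6 called each, the kinetochore genes 4 of 9, the spindle genes 3 of 6, the cytokinesis and the condensin genes 2 of 6 each and the anaphase genes 1 of 3. Cdca8 (-0.18 ± 0.46, adjusted p = 0.803), Kif2c (-0.21 ± 0.45, adjusted p = 0.763), Smc2 (-0.29 ± 0.45, adjusted p = 0.659) and Cdc20 (-0.35 ± 0.48, adjusted p = 0.618) were not called.

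These calls depended on which libraries entered the fit. In none of the 42 genes did the serum groups separate when control serum replicate 1 was kept (41.9% of all genes separated), and in all 42 they separated without it (61.4%). Without it all 42 genes were lower in NG2|EDmut cells by edgeR (20.2% of genes lower), with a median of -1.70, and Kif4 was at -2.42 ± 0.14, adjusted p = 2.44e-07, Kif2c at -0.66 ± 0.21, adjusted p = 0.0231 and Cdc20 at -0.83 ± 0.11, adjusted p = 8.27e-05. Control serum replicates 2 and 3 stood above all other libraries in all 42 genes. The separation was therefore fixed once replicate 1 was left out, and the p-values without it rest on that choice. Leaving out control serum replicate 2 or 3 instead left 1 and 3 calls, leaving out NG2|EDmut serum replicate 1, 2 or 3 left 1, 1 and 4, and leaving out any starved library left 11 to 14. The median SD of log2 CPM over the 42 genes was 1.60 in control serum, 0.122 there without replicate 1, 0.298 in the starved control, 0.201 in NG2|EDmut serum and 0.0961 in starved NG2|EDmut libraries, and the test pools these into 1 spread per gene. With only the 6 serum libraries in the fit, Kif4 alone was called (12.2% of genes lower).

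**Figure D3:**
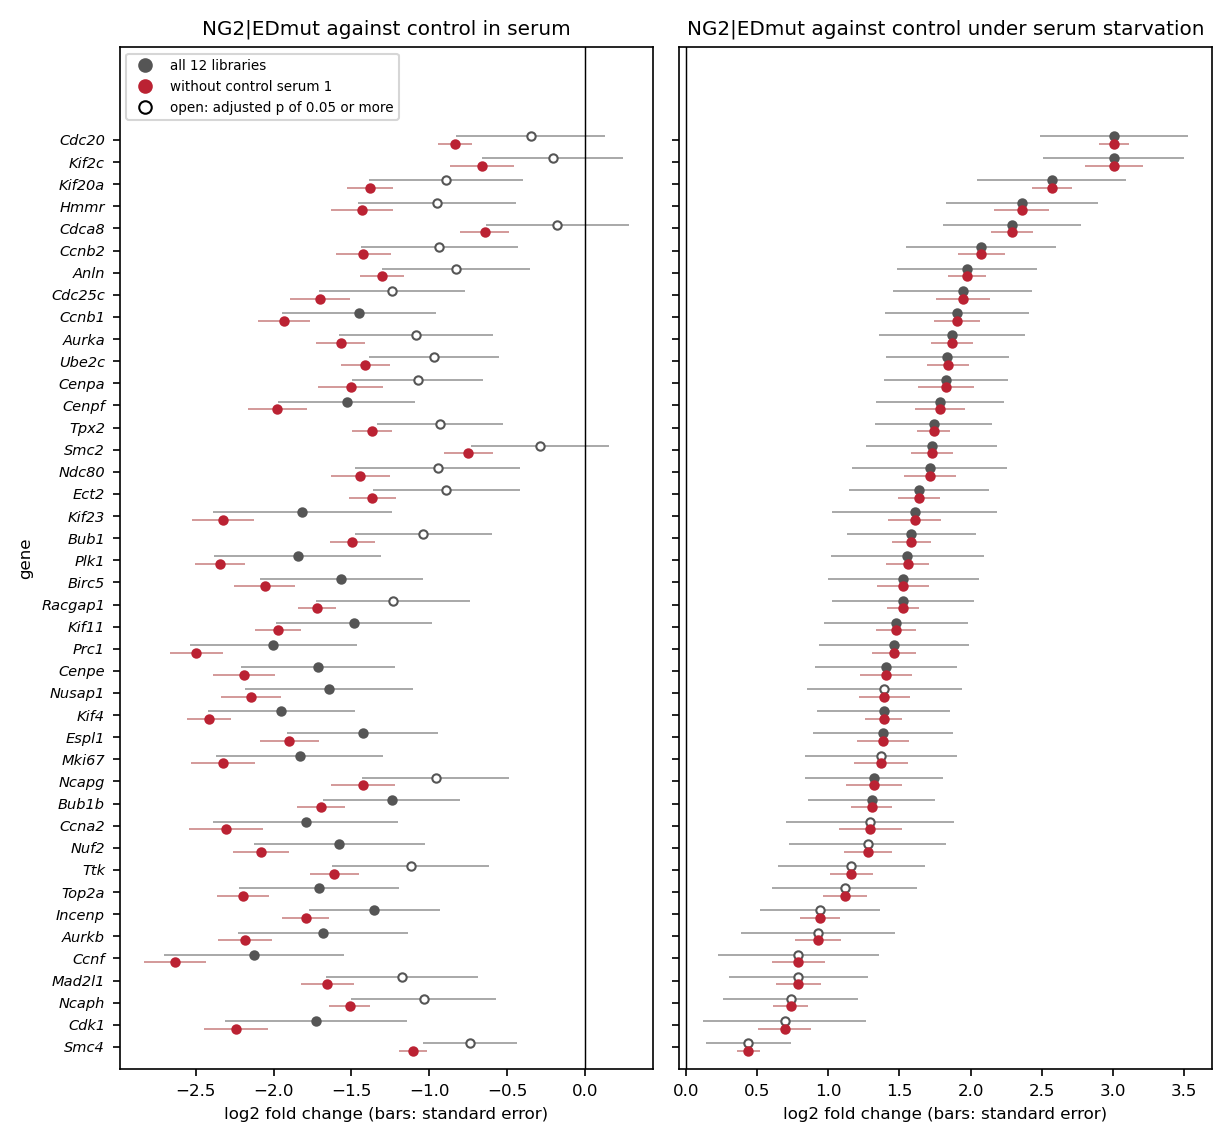
Log2 fold change of NG2|EDmut against control for each of the 42 genes in serum (left) and under serum starvation (right), with standard errors as bars, from the fit of all 12 libraries (grey) and without control serum replicate 1 (red). Filled points are called at an adjusted p under 0.05: 20 grey and 42 red points below 0 on the left, 29 grey and 42 red points above 0 on the right.

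Under starvation these genes were higher in the NG2|EDmut line. In serum the fitted differences had been below 0, but with all libraries kept the lines separated in none of the 42 genes. The 42 genes summed to 2.91 times more in starved NG2|EDmut than in starved control cells, every NG2|EDmut library was above every control library in all 42 (56.8% of all tested genes separated the starved lines), and 29 were called higher by edgeR, against 17.9% of all tested genes, with none lower. The median log2 fold change was 1.53 (-0.02 over all tested genes). Kif2c (3.01 ± 0.49, adjusted p = 0.000493), Cdc20 (3.01 ± 0.52, adjusted p = 0.000692) and Kif20a (2.57 ± 0.52, adjusted p = 0.00212) had the smallest p-values, and Hmmr (2.36 ± 0.53, adjusted p = 0.00413) and Cdca8 (2.29 ± 0.48, adjusted p = 0.00274) came next in size. All 6 cytokinesis and all 3 anaphase genes were called, 5 of 6 spindle genes, 6 of 9 kinetochore genes, 4 of 6 kinases and passenger genes, 3 of 6 cyclin and CDK1 genes and 2 of 6 condensin, topoisomerase and chromosome surface genes. The smallest differences were those of Smc4 (0.44 ± 0.30, adjusted p = 0.279) and Cdk1 (0.69 ± 0.57, adjusted p = 0.375), neither called.

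Control serum replicate 1 belongs to neither of the starved groups, but it enters the spread that the groups share and the choice of genes tested (19265 without it). Without it the median was again 1.53 and all 42 genes were called (21.7% of genes higher), as they were with only the 6 starved libraries in the fit (22.6% higher), where Smc4 had 0.45 ± 0.090, adjusted p = 0.00385. Leaving out control starved replicate 2 or 3 left 15 and 16 calls, and leaving out starved NG2|EDmut replicate 1, 2 or 3 left 17, 17 and 18.

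In the NG2|EDmut line, these genes were at similar levels with serum and under starvation. The sum over the 42 genes was 1.16 times higher in serum, the median log2 fold change was -0.14 (-0.01 over all tested genes), and the edgeR fit of 12 libraries called none of 42 in either direction (2.06% of all tested genes were called), with 0 at an unadjusted p under 0.05. DESeq2 called 0, with 2 at an unadjusted p under 0.05. In 17 of the 42 genes the serum and starved libraries did not overlap, where 33.2% of all tested genes did not.

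The 6 NG2|EDmut libraries fitted alone, with their narrower spread, called some of the genes and not others. There 14 genes fell (8.77% of all genes tested in that fit were lower) and 1 rose (6.96% higher). Those that fell were Ect2 (-0.99 ± 0.085, adjusted p = 0.000116), Ncaph (-0.93 ± 0.092, adjusted p = 0.000252) and Aurkb (-0.83 ± 0.11, adjusted p = 0.00107), the condensin subunits Smc2, Smc4 and Ncapg, Top2a (-0.46 ± 0.095, adjusted p = 0.0115), the checkpoint genes Ttk, Bub1 and Mad2l1 (-0.60 ± 0.14, adjusted p = 0.0216), Cdk1 (-0.62 ± 0.15, adjusted p = 0.0240), Kif11, Anln and Incenp. Of the condensin, topoisomerase and chromosome surface genes 5 of 6 were called lower, and of the 3 anaphase genes none. These groups are small and were not tested against each other. Kif20a rose (0.40 ± 0.095, adjusted p = 0.0215), a call that the edgeR fit of 12 libraries did not make (adjusted p = 0.862). Kif4 (0.00052 ± 0.082, adjusted p = 0.997), Tpx2 (-0.00057 ± 0.073, adjusted p = 0.997), Bub1b (-0.0050 ± 0.11, adjusted p = 0.983), Kif2c (0.075 ± 0.11, adjusted p = 0.714), Cdc20 (0.15 ± 0.076, adjusted p = 0.222) and Plk1 (0.22 ± 0.12, adjusted p = 0.255) were not called. Without control serum replicate 1, the fit of 11 libraries called 7 of the 14 lower (4.43% of genes lower): Aurkb, Ect2, Mad2l1, Ncaph, Smc2, Smc4 and Ttk. Kif20a was not called there.

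**Figure D4:**
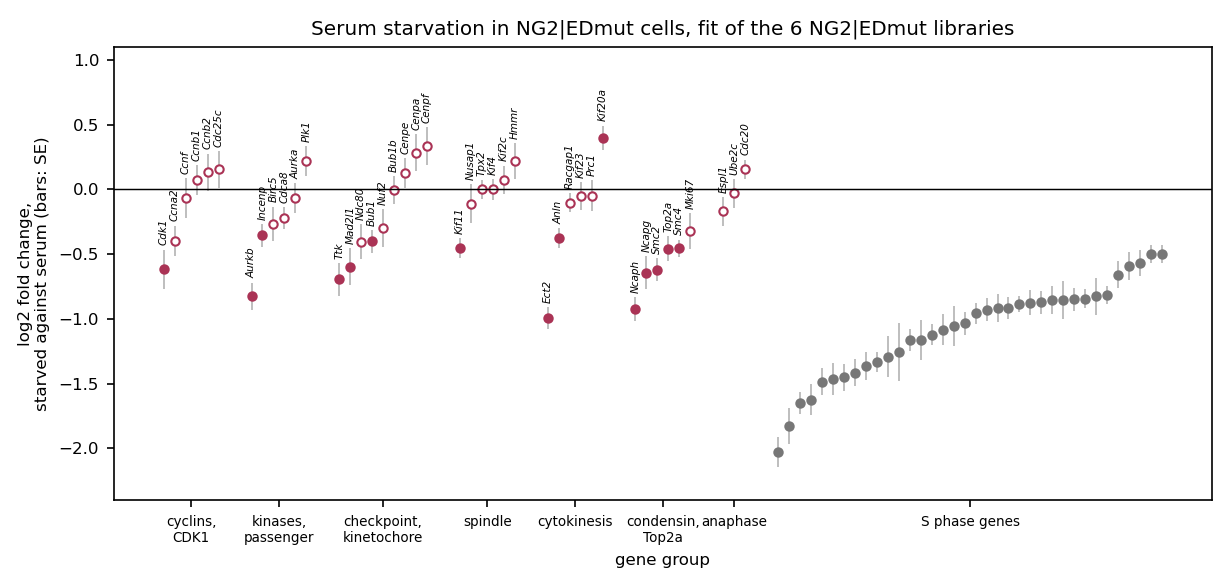
Log2 fold change of starved against serum NG2|EDmut libraries for the 42 genes, grouped by role (red), and for 36 S phase genes (grey), with standard errors, from the fit of the 6 NG2|EDmut libraries. Filled points are called at an adjusted p under 0.05: 14 of the 42 genes lower and Kif20a higher, and all 36 S phase genes lower.

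Whether starvation acted differently on the lines was tested as an interaction, the log2 fold change under starvation in NG2|EDmut minus that in control cells. It was above 0 in all 42 genes, with a median of 2.88 (-0.03 over all tested genes), and 27 were called by edgeR, against 2.03% of all tested genes called in that direction. Cenpf (3.32 ± 0.63, adjusted p = 0.0126), Kif4 (3.34 ± 0.66, adjusted p = 0.0168) and Kif2c (3.21 ± 0.66, adjusted p = 0.0198) had the smallest p-values. All 6 spindle and all 3 anaphase genes were called, 5 of 6 cytokinesis genes, 5 of 9 kinetochore genes, 3 of 6 in each of the cyclin and kinase groups and 2 of 6 condensin, topoisomerase and chromosome surface genes. Smc4 had the smallest value (1.18 ± 0.43, adjusted p = 0.152). Without control serum replicate 1 all 42 were called (10.3% of genes), with a median of 3.34, and leaving out any other single library left 1 to 13. The interaction, the control starvation effect and the line comparisons share libraries and are not independent of each other.

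Other genes of the cell cycle were counted by lists. Of 80 further mitosis genes in the table (of 82 listed), edgeR called 75 lower and 1 higher in the starved control (median -2.70), where 10.8% of all tested genes were lower, and 78 lower and 1 higher without control serum replicate 1 (median -3.17, 15.8%). In NG2|EDmut serum libraries 23 were lower (median -1.13, against 16.2% of all tested genes), and 74 without that library (median -1.58, 20.2%). In starved NG2|EDmut libraries 29 were higher and 2 lower (median 0.95, against 17.9% of all tested genes higher), but 61 higher and 4 lower without that library (21.7% higher) and 58 higher and 4 lower with only the starved libraries in the fit (22.6% higher). For starvation in NG2|EDmut cells none was called (median -0.35), where 25 were lower without that library (4.43% of genes lower) and 33 in the fit of that line alone (8.77%). The 36 S phase genes, which copy DNA or license its origins, had another order. Their median was 16.4, 62.0 and 62.6 CPM in control serum replicates 1, 2 and 3, at 17.7, 18.8 and 14.8 CPM in the starved control, at 30.4, 33.2 and 31.5 CPM in NG2|EDmut serum and at 17.2, 16.8 and 15.4 CPM in starved NG2|EDmut libraries. Starved NG2|EDmut and starved control libraries thus overlapped for this median, whereas the median of the 42 mitosis genes was 35.3, 33.8 and 32.9 CPM in starved NG2|EDmut and 11.3, 8.88 and 7.83 CPM in starved control libraries. For starvation in NG2|EDmut cells the S phase genes had a median log2 fold change of -1.0, with 1 of 36 called lower by the fit of 12 libraries and 36 of 36 by the fit of the NG2|EDmut libraries, beside 0 and 14 of the 42 mitosis genes. The counts were 36 of 36 and 7 of 42 without control serum replicate 1. Between the starved lines their median was 0.15, with 1 higher and 3 lower, beside a median of 1.53 and 29 higher for the 42 mitosis genes and 17.9% of all tested genes higher. Without control serum replicate 1 the S phase genes had 12 higher and 7 lower (21.7% of genes higher), and with only the starved libraries 9 higher and 6 lower (22.6% higher), beside 42 higher of the 42 mitosis genes in both fits. These lists are described by counts, and no test of one list against another was made. Between the starved lines the share of all genes called lower is not given, so the lower counts there are not read as a result about a list.

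Of 17 listed regulators of mitosis transcription, Foxm1, Mybl2 and Lin9 are given by value and the others by counts. Foxm1 was at 38.1, 226 and 187, at 31.0, 21.6 and 23.5, at 73.8, 70.0 and 76.3 and at 52.7, 53.3 and 51.6 CPM, in the order used above. Mybl2 was at 9.29, 57.0 and 54.9, at 8.43, 3.85 and 4.67, at 23.1, 24.1 and 22.8 and at 8.47, 7.11 and 6.04 CPM, so that its starved NG2|EDmut libraries overlapped the starved control and those of Foxm1 did not. Lin9, a core subunit of MuvB, had means of 14.8 ± 7.18, 4.67 ± 0.801, 11.2 ± 0.855 and 6.48 ± 0.751 CPM. In the starved control all 3 fell by edgeR (Foxm1 -2.57 ± 0.46, adjusted p = 0.00311; Mybl2 -2.83 ± 0.53, adjusted p = 0.00379; Lin9 -1.66 ± 0.32, adjusted p = 0.00469). Without control serum replicate 1 they fell by more (Foxm1 -3.03 ± 0.14, Mybl2 -3.30 ± 0.26 and Lin9 -2.01 ± 0.16, adjusted p of at most 2.45e-06), and with only the 6 control libraries in the fit Foxm1 alone was called (adjusted p = 0.0488, against 0.0516 for Mybl2 and 0.0575 for Lin9). In the NG2|EDmut libraries fitted alone, Mybl2 fell most (-1.69 ± 0.12, adjusted p = 5.93e-05) and Foxm1 least (-0.48 ± 0.062, adjusted p = 0.00112), with Lin9 between (-0.79 ± 0.12, adjusted p = 0.00233), while the fit of 12 libraries called none of them there and the fit without control serum replicate 1 called all 3 lower (adjusted p 0.00105 to 0.0380). Between the starved lines Foxm1 was higher in NG2|EDmut cells in the fit of the 6 starved libraries (1.05 ± 0.14, adjusted p = 0.000366) and without control serum replicate 1 (1.05 ± 0.13, adjusted p = 3.49e-05), and was not called in the fit of 12 (1.05 ± 0.44, adjusted p = 0.0818). Over the 17 regulators the median difference between the starved lines was -0.18, with 8 above 0 and 9 below. In the fit of 12 libraries 1 was called higher and 3 lower (17.9% of all tested genes higher). Without control serum replicate 1, 4 were higher, close to the share over all genes, and 6 lower (21.7% of genes higher). The share of all genes called lower is not given, so the lower counts are not read as a result about the list.

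**Figure D5:**
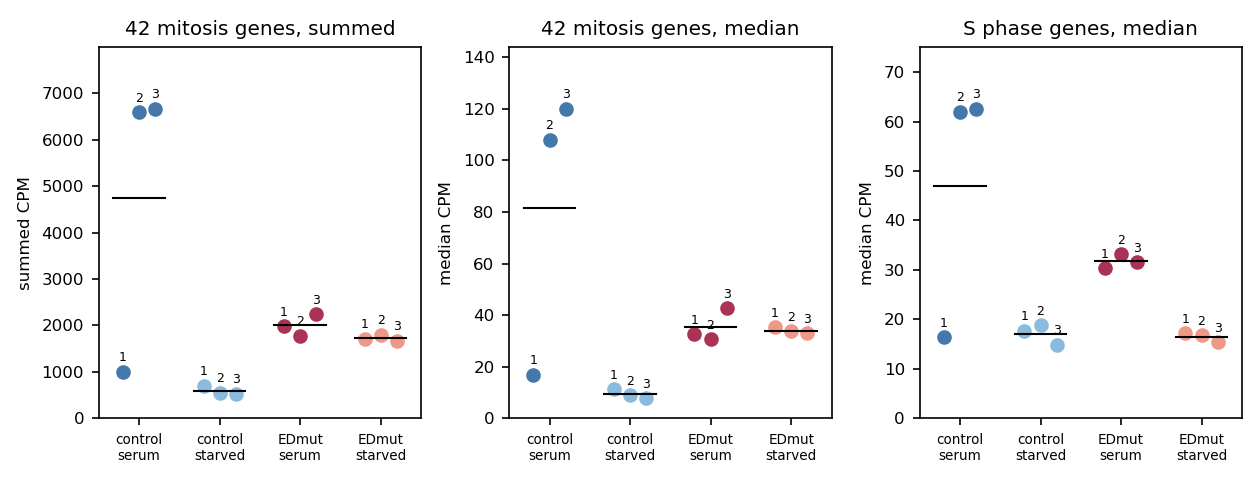
Summed CPM of the 42 genes (left), their median CPM (middle) and the median CPM of 36 S phase genes (right) in each library, with the replicate number above each point and a line at the group mean (EDmut stands for NG2|EDmut). The starved NG2|EDmut libraries lie near the serum libraries of that line for the 42 genes and at 15.4 to 17.2 CPM, near the starved control, for the S phase genes.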

How the data were processed

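Poly(A) RNA from 12 cultures was sequenced as paired-end TruSeq Stranded libraries on an Illumina NovaSeq. The authors mapped reads with HISAT2, assembled with StringTie and merged transcriptomes by gffcompare and perl scripts, and the submitters' processing notes also name FastQC and edgeR, without versions. The authors deposited an estimated count and an FPKM value per gene and library, both from StringTie coverage, so that 1 estimated count is not 1 read. The build is not stated. Start and end of 41 of the 42 genes equalled GENCODE M21 (GRCm38).

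Estimated counts, already whole numbers, were tested with edgeR 4.0.16 (filterByExpr, TMM, quasi-likelihood test, 1 mean per group, 8 residual degrees of freedom), with p-values adjusted by Benjamini-Hochberg over 18703 genes and called under 0.05. The standard error of a log2 fold change was its size divided by the square root of the F statistic of the edgeR test. The spread is shared by all groups, so 1 wide group widens every standard error. Alternatives were DESeq2 1.42.0, limma 3.58.1 on log2(FPKM + 1) or log2(FPKM + 0.1), other filters, RLE size factors, subsets of libraries and a replicate block. Scripts were tested on simulated data. The genes and lists were chosen with earlier results of these data known. Every library's value is given for the 2 genes of each role highest in FPKM and for up to 3 called genes per direction with the smallest p in each comparison. Other genes are given as group means, counts and ranges, and any named beyond these were chosen after their values were seen. Sequences and start sites are from RefSeq (GRCm38.p6).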

Additional observations from a re-analysis of the deposited data

Results flagged for a closer look

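A difference between the lines in the response to starvation flagged 27 of the 42 genes, those whose interaction of line and starvation passed an adjusted p of 0.05 by edgeR. The 3 with the smallest p were Kif4, with a log2 difference of 3.34, Cenpf with 3.32 and Kif2c with 3.21. In each of them the starved control libraries were below the control serum libraries, and the starved and serum NG2|EDmut libraries overlapped. Without control serum replicate 1, all 42 passed. Groups of 3 libraries are too small for a test of single outlying values, so control serum replicate 1 carries no flag of its own.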

How the results depend on the processing

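The fall of all 42 genes in the starved control held with any 1 library left out, but with only the groups compared 7 of the 42 were not called. Counts of calls in the other comparisons also moved. With 1 library left out, the genes lower in NG2|EDmut serum cells numbered 1 to 42, those higher in starved NG2|EDmut cells 15 to 42, those lower for starvation in NG2|EDmut cells 0 to 7, and the interaction 1 to 42, the upper end in each case without control serum replicate 1. In the order serum, starved lines, interaction, the counts (20, 29 and 27 with the settings used above) were 10, 19 and 14 with no filter on low counts, 1, 17 and 5 with limma on log2(FPKM + 1), and 0, 10 and 0 with that and no filter. Limma on log2(FPKM + 0.1) gave 1 in serum and 10 for the interaction. Only the groups compared gave 1 in serum, and 14 lower and 1 higher for starvation in NG2|EDmut cells. The replicate block gave 6, 19 and 2, but the replicate numbers are only shared labels: 4 of 18 same-numbered pairs deviated together (correlations -0.371 to 0.341), and 1 of 12 libraries correlated best with its own number. The cause of these moves was not tested.

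Signs were compared across alternatives for the genes that the rule selected in each comparison, and the genes whose sign changed were not called in the fit of 12 libraries. For starvation in NG2|EDmut cells, Tpx2 and Bub1b became 0.00677 and 0.00188 with DESeq2, 0.00679 and 0.00197 with RLE size factors, 0.013 and 0.012 with limma on log2(FPKM + 1), filtered or not, and 0.014 and 0.014 on log2(FPKM + 0.1). With limma, Cdc20 and Kif2c in serum became 0.092 and 0.080 on log2(FPKM + 1), filtered or not, and 0.11 and 0.13 on log2(FPKM + 0.1). With 1 library left out, Kif2c in serum ranged from -0.66 to 0.12 and Cdc20 from -0.83 to 0.016, and for starvation in NG2|EDmut cells Tpx2 from -0.065 to 0.051, Bub1b from -0.12 to 0.092, Kif2c from -0.017 to 0.21 and Ube2c from -0.11 to 0.11.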
